A study of Mus musculus with 16 samples.

Results

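The chromosome 9 receptor cluster is a set of 99 odorant receptor genes, taken from the 1080 odorant receptors with a probe set on the array and from 22206 probe sets tested in all. Members are the receptors whose array symbol lies in the numbered run from Olfr828 to Olfr984, apart from Olfr907, Olfr910, Olfr912, Olfr913, Olfr914, Olfr920, Olfr921 and pseudogenes, with the probe set of highest mean where a gene had several. In the reference gene order they lie in 2 blocks, a first of 30 genes (Olfr828 to Olfr873) and a second of 69 genes (Olfr874 to Olfr984), with 308 other annotated genes between the blocks. Among these other genes are 161 protein-coding genes and 3 further receptor symbols.

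Odorant receptors are G protein-coupled receptors of the olfactory sensory neuron, and each mature neuron transcribes a single receptor gene from a single allele. A receptor transcript in pooled cells therefore counts the neurons that chose that gene as well as the RNA in each of them. Receptors are grouped into MOR families by sequence, and genes of a family often lie side by side after local duplication. Among MOR171, the largest family here, the related receptors M71 and M72 (Olfr151 and Olfr160, which are not members) are known for responding to acetophenone, and Olfr958 and Olfr961 of family MOR224 for responding to eugenol.

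The arrays came from S100a5-tauGFP mice, in which the promoter of S100a5, which encodes a calcium-binding protein and is transcribed more in active olfactory sensory neurons, drives a green fluorescent reporter. All mice carried the reporter, controls included. The mice, 24 of both sexes aged 7 to 12 weeks, stayed alone in clean-air chambers for 40 h (3.1 L per min), and from 26 h received a 10 s pulse of 2-hexanone, a small ketone, or of filtered air every 20 min. Cells of the olfactory mucosa from 3 mice were pooled and sorted, which gave 4 groups of 4 arrays: odor GFP+, odor GFP-, vehicle GFP+ and vehicle GFP- cells. No gate other than GFP is named in the labels, so the GFP- fraction could hold any other cell of the mucosa. The values are log2 signals of Clariom S arrays as deposited. They run from 1.25 to 19.81, above the 16 bits of a scanner, so an unstated transformation acts on every difference and fold given here. How precise the values are depends on having 4 arrays a group.

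The background floor of an array was the highest of its 23 antigenomic background bins and lay between 6.16 and 7.33. Of the 99 receptors, 27 were above the floor on all 16 arrays, 52 on some arrays and 20 on none. All 99 were tested, with no filter on low values. S100a5, the gene behind the sort, was at 16.92, 16.83, 16.17 and 16.98 in odor GFP+ arrays and at 15.18, 15.13, 14.89 and 15.23 in odor GFP- arrays. It was at 17.03, 16.27, 16.25 and 16.11 in vehicle GFP+ arrays and at 15.60, 15.06, 14.94 and 14.54 in vehicle GFP- arrays. In both treatments every GFP+ array lay above every GFP- array, with log2 differences of 1.61 ± 0.25 in odor (SE, adjusted p = 9.83e-05) and 1.38 ± 0.25 in vehicle (adjusted p = 0.000514), by limma with Benjamini-Hochberg adjustment over all 22206 probe sets. Omp, which marks mature neurons of this tissue, averaged 19.45 ± 0.04 in odor GFP+ and 19.36 ± 0.11 in odor GFP- arrays (SD, n = 4 each), close to the top of the scale.

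The reference gene table gives a transcript model longer than 2000 bases for 9 members and a shorter one for 90. The coding sequence of a receptor is short and has no intron, so the longer models reach well beyond it, and the windows printed here come from them. Windows of 250 bases before the RefSeq start (build GRCm38.p6) were available for 86 members. The windows of 5 of them are shown 5′ to 3′ because they belong to a receptor far higher in GFP+ cells (Olfr860), to one lower there but close to the floor (Olfr943) and to 3 nearby relatives of family MOR145 (Olfr868, Olfr869 and Olfr872). Capitals mark TAATTA, the core recognised by homeodomain proteins such as Lhx2 and Emx2, which bind receptor promoters.
Olfr860, chr9:19849748-19849997, - strand: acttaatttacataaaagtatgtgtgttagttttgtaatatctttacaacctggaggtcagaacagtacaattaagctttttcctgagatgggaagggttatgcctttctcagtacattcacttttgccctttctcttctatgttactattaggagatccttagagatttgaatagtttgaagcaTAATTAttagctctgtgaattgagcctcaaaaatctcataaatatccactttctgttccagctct
Olfr868, chr9:20098376-20098625, + strand: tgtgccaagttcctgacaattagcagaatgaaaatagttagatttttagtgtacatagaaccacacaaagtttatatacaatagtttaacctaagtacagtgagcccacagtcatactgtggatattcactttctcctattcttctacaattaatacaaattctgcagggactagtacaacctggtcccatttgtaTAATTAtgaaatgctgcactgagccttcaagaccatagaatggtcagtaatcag
Olfr869, chr9:20128870-20129119, + strand: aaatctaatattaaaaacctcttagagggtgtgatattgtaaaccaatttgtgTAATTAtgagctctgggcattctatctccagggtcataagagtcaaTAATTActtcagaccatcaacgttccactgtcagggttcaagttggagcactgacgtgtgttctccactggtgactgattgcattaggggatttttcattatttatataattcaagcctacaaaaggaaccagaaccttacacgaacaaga
Olfr872, chr9:20236912-20237161, + strand: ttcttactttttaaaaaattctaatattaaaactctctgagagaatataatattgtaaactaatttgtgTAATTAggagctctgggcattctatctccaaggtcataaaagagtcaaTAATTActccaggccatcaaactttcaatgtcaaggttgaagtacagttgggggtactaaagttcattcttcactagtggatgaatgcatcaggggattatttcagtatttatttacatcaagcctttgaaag
Olfr943, chr9:39166060-39166309, + strand: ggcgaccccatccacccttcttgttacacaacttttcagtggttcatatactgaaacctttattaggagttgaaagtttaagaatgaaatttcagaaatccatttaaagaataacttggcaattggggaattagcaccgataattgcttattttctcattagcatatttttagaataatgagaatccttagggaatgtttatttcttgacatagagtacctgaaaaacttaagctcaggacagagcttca
The windows of Olfr869 and Olfr872 share 185 of 225 aligned bases (67.3% identity with 50 gap positions counted) and each holds TAATTA 2 times. The windows of Olfr860 and Olfr868 hold it once, and that of Olfr943 does not hold it. The next closest pair of the 21 pairs compared, Olfr860 and Olfr868, had 50.9% identity. TAATTA reads the same on both strands. It was found in 23 of the 87 windows of these 86 members (26.4%), in 143 of 838 windows of other odorant receptors (17.1%) and in 1590 of all 32851 windows (4.84%). Of the 87 member windows, 9 come from the longer models. A shorter model may start close to the coding sequence, so its window need not lie before the transcription start. Base composition differs between these sets, with 67.3% A and T in member windows, 65.1% in those of other receptors and 46.8% in all windows. The Olf/Ebf core CCCNNGGG, which reads the same on both strands, was in 1 member window (1.15%), in 2.74% of other receptor windows and in 11.8% of all windows. The same core with T before and A after it, which the core count includes, was in 0 of 87 member windows, in 0.477% of other receptor windows and in 0.779% of all windows. The 9 windows of members with the longer models, from 8 genes, held TAATTA in 4 (44.4%), against 18 of 118 (15.3%) for other receptors with such models, and the core CCCNNGGG in 0, against 16 of 118 (13.6%). These matches describe letters in a window and are not binding sites.

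The first pair of comparisons set GFP+ against GFP- cells within a treatment and asked which receptors mark the neurons carrying the activity reporter. The cluster was split. In odor pools 38 of the 99 receptors were higher in GFP+ cells and 19 lower, and in vehicle pools 41 were higher and 20 lower. On the deposited scale the highest were Olfr981, Olfr860 and Olfr849, whose log2 differences lay between 4.11 and 4.84, and the lowest were Olfr878, Olfr972 and Olfr969, between -7.99 and -5.79. In each of these 6 at least 2 of the 4 dimmer arrays of a treatment were under the floor, so the order among them includes signal at background. The same direction was called in both treatments for 37 receptors that were higher and 16 that were lower, and no receptor was called in opposite directions.

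These shares were near those of the other receptors and above those of all probe sets. Over all probe sets 14.9% were called in odor (5.29% higher, 9.56% lower) and 15.7% in vehicle (5.83% higher, 9.86% lower). Among the 981 other odorant receptors 36% were called higher and 22% lower in odor, and 35.5% and 22.3% in vehicle. The members' 57.6% in odor and 61.6% in vehicle stand beside 58% and 57.8% of the other receptors. Calls in both treatments covered 3.03% (higher) and 8.37% (lower) of all probe sets, against 32.2% and 20.4% of the other receptors. The median log2 difference of the members was 0.59 in odor, beside 0.47 for other receptors and 0.14 for all probe sets, and 0.90 in vehicle, beside 0.39 and 0.14. The members' medians were 0.036 and 0.28 with values raised to the floor, and 0.94 and 1.26 with arrays centred on their medians. Of all calls in odor 35.6% were higher, and this share was 83.2% when arrays were centred on their medians, which moved the median of all probe sets to 0.49. For the members the share of higher calls was 66.7%, and 74.6% with centring. In sorted bulk samples, fewer neurons with a receptor and less of its RNA per neuron cannot be told apart.

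Other cells moved with the sort. All 7 measured immune markers of 8 listed were lower in GFP+ cells in both treatments (median log2 difference -9.22 in odor and -9.29 in vehicle). The log2 of their summed signal was 8.53 to 9.13 in odor GFP+ and 18.81 to 19.13 in odor GFP- arrays, and 8.04 to 9.73 in vehicle GFP+ and 17.43 to 19.75 in vehicle GFP- arrays. Of 6 immature neuron markers, 4 were lower in odor and 5 in vehicle (median log2 difference -2.62 and -2.77). Stmn2 and Tubb3, the brightest of them, weigh most in their summed signal and had differences of -0.42 and 0.11 in odor. The log2 of that sum was 15.18 to 15.50 in odor GFP+ and 15.47 to 15.82 in odor GFP- arrays, and 15.13 to 15.53 in vehicle GFP+ and 15.61 to 15.97 in vehicle GFP- arrays. Of 6 sustentacular markers, 5 were lower in each treatment, at 13.36 to 14.43 in odor GFP+ and 15.28 to 15.71 in odor GFP- arrays, and at 11.84 to 13.79 in vehicle GFP+ and 14.39 to 15.72 in vehicle GFP- arrays. Of the immune markers, Ptprc averaged 4.79 in odor GFP+ arrays, under the floor, and 11.76 in odor GFP- arrays. The part of these cells in the receptor differences was not tested. Of the 7 mature neuron markers none was called in odor and 1 was higher in vehicle (median log2 differences 0.21 and 0.10). In odor GFP+ arrays Stoml3 averaged 19.78, Omp 19.45 and Gnal 19.12, close to the highest value of 19.81. A difference in these genes could therefore be missed.

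The GFP+ arrays lay wholly above the GFP- arrays for 40 members in odor and 40 in vehicle, and wholly below for 20 and 21. Over all probe sets the corresponding shares were 9.4% and 9.01% above, and 10.6% and 10% below. For other receptors they were 34.9% and 33% above, and 21.8% and 21.8% below. Across the 99 members the sort difference in odor and that in vehicle, which share no array, had a Pearson r of 0.977 and a Spearman rho of 0.963, given as a description across genes that share probes and array processing.

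**Figure D1:**
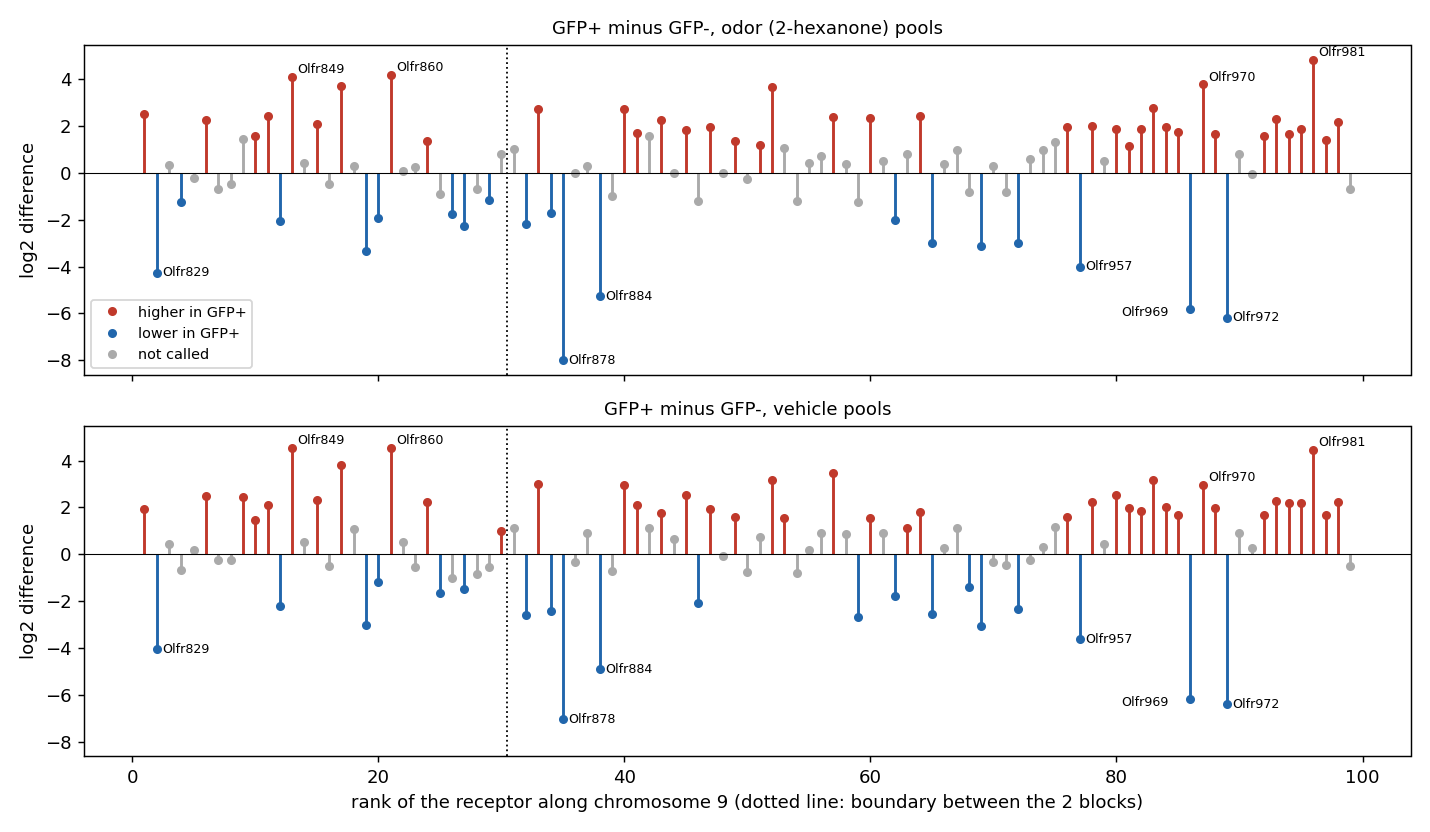
Log2 difference of GFP+ minus GFP- cells for each of the 99 receptors, in chromosome order, in odor pools (upper panel) and vehicle pools (lower panel). Red points were called higher, blue lower and grey not called; receptors such as Olfr981 and Olfr878 stand in the same place in both panels, and higher and lower receptors are interspersed along both blocks.

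Olfr981 stood first on the deposited scale among the receptors that were higher in GFP+ cells, a rank taken against GFP- arrays under the floor. It measured 10.41, 9.92, 9.77 and 8.27 in odor GFP+ arrays and 5.22, 4.65, 5.05 and 4.08 in odor GFP- arrays. In vehicle pools it gave 10.94, 9.72, 9.60 and 9.24 in GFP+ and 5.64, 5.99, 5.18 and 4.86 in GFP- arrays. All 8 GFP+ arrays were above the floor and all 8 GFP- arrays under it, so the fold is a bound, at least 7.35-fold higher in odor (log2 difference 4.84 ± 0.42 SE, adjusted p = 1.02e-07) and at least 9.99-fold higher in vehicle (4.46 ± 0.42, adjusted p = 3.08e-07). The bounds set the GFP+ mean against the mean over GFP- arrays of the higher of floor and signal.

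Olfr860, whose start window is printed above, was nearly uniform in odor. It stood at 10.01, 10.22, 10.10 and 9.86 in odor GFP+ arrays and at 5.79, 5.33, 6.37 and 5.90 in odor GFP- arrays. In vehicle it stood at 10.74, 10.13, 9.80 and 8.66 in GFP+ and at 6.23, 5.30, 4.82 and 4.73 in GFP- arrays. Every GFP+ array lay above every GFP- array, and GFP+ cells were at least 10.1-fold higher in odor (4.20 ± 0.37, adjusted p = 1.25e-07) and at least 9.69-fold higher in vehicle (4.56 ± 0.37, adjusted p = 4.77e-08).

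Olfr849, the single member of family MOR151, measured 11.66, 10.58, 10.90 and 10.10 in odor GFP+ arrays, against 7.78, 6.53, 5.98 and 6.49 in odor GFP- arrays. In vehicle the GFP+ arrays gave 12.11, 11.24, 8.83 and 10.55 and the GFP- arrays 7.99, 6.01, 5.81 and 4.66. The groups did not overlap, but the vehicle arrays were the more scattered, with 8.83 in the third GFP+ pool and 7.99 in the first GFP- pool. The difference was 4.11 ± 0.66 in odor (adjusted p = 0.000147) and 4.56 ± 0.66 in vehicle (adjusted p = 4.76e-05). With 1 GFP- array above its floor in each treatment and the others raised to theirs, GFP+ cells were 13.8-fold and 13.9-fold higher.

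The next 5 of the 8 highest were Olfr854, Olfr905, Olfr970, Olfr965 and Olfr919, all with GFP+ and GFP- arrays that did not overlap in either treatment. Olfr854 averaged 8.88 ± 0.22 in odor GFP+ and 5.17 ± 0.72 in odor GFP- arrays (SD, n = 4 each), and 9.30 ± 0.23 in vehicle GFP+ and 5.49 ± 1.18 in vehicle GFP- arrays. Olfr905 averaged 8.92 ± 0.69 in odor GFP+ and 5.26 ± 0.66 in odor GFP- arrays, and 9.07 ± 0.49 in vehicle GFP+ and 5.92 ± 0.69 in vehicle GFP- arrays. Olfr965 averaged 8.80 ± 0.62 in odor GFP+ and 6.02 ± 0.63 in odor GFP- arrays, and 9.62 ± 0.34 in vehicle GFP+ and 6.45 ± 0.37 in vehicle GFP- arrays. For these 3 the deposited difference was between 2.78 and 3.81 on the log2 scale in each treatment, with most GFP- arrays under the floor. Against the floor, GFP+ cells were at least 4.47-fold higher for Olfr854 and at least 4.61-fold for Olfr905 in odor, and 4.18-fold higher for Olfr965 with dim arrays raised to it. Olfr919 measured 9.04, 7.74, 7.59 and 7.58 in odor GFP+ and 5.88, 4.80, 6.73 and 4.99 in odor GFP- arrays, a difference of 2.39 ± 0.41 (adjusted p = 0.000338). For vehicle it was at 9.71, 8.65, 8.92 and 8.20 in GFP+ and 5.80, 5.57, 5.17 and 5.08 in GFP- arrays, a difference of 3.47 ± 0.41 (adjusted p = 5.16e-06). All 8 GFP- arrays of Olfr919 were under the floor (at least 2.42-fold higher in odor and at least 4.98-fold in vehicle). One odor GFP+ array, that of the first pool, stood well above the other 3.

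Olfr878, the single member of family MOR163, stood furthest from 0 on the deposited scale, with its GFP+ signal at background. It measured 5.61, 3.06, 3.62 and 3.87 in odor GFP+ arrays, all under the floor, and 12.48, 12.08, 11.56 and 11.98 in odor GFP- arrays. Vehicle pools gave 5.10, 4.46, 5.03 and 4.90 in GFP+ and 12.88, 11.53, 11.58 and 11.73 in GFP- arrays. It was bright in every GFP- array and not above background in any GFP+ array. GFP+ cells were at least 39.3-fold lower in odor (log2 difference -7.99 ± 0.42, adjusted p = 1.6e-10) and at least 44.4-fold lower in vehicle (-7.06 ± 0.42, adjusted p = 7.28e-10).

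Olfr972, a MOR171 receptor, measured 6.43, 6.26, 7.22 and 6.66 in odor GFP+ arrays and 13.43, 12.33, 13.23 and 12.30 in odor GFP- arrays. In vehicle it measured 6.50, 6.72, 5.71 and 6.03 in GFP+ and 13.40, 12.39, 12.76 and 11.99 in GFP- arrays. GFP+ arrays stayed near the floor, with 2 of 4 above it in each treatment, while the lowest GFP- array was at 11.99. The difference was -6.18 ± 0.33 in odor (adjusted p = 2.12e-10) and -6.39 ± 0.33 in vehicle (adjusted p = 1.41e-10), or 59.8-fold and 64.3-fold lower with the dim arrays raised to their floor.

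Olfr969, of the same family, measured 7.58, 4.70, 4.23 and 3.21 in odor GFP+ arrays and 11.02, 10.61, 10.73 and 10.51 in odor GFP- arrays. In vehicle pools it gave 6.32, 4.25, 3.96 and 4.51 in GFP+ and 11.47, 10.49, 10.97 and 10.88 in GFP- arrays. The GFP- arrays agreed within 1 unit in each treatment, whereas the first GFP+ pool was higher than the other 3 in both. Differences were -5.79 ± 0.66 in odor (adjusted p = 2.86e-06) and -6.19 ± 0.66 in vehicle (adjusted p = 1.25e-06), and the floored folds were 15.2 and 21.9, with 1 GFP+ array above the floor in each treatment.

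Olfr884, of family MOR162, measured 4.02, 3.29, 4.15 and 4.47 in odor GFP+ and 9.01, 9.48, 9.46 and 9.03 in odor GFP- arrays. For vehicle it was at 3.70, 4.58, 4.40 and 4.76 in GFP+ and 9.82, 9.34, 9.02 and 8.90 in GFP- arrays. All GFP+ arrays were under the floor and all GFP- arrays over it, so GFP+ cells were at least 5.74-fold lower in odor (-5.27 ± 0.28, adjusted p = 1.66e-10) and at least 7.03-fold lower in vehicle (-4.91 ± 0.28, adjusted p = 3.93e-10). Olfr829 (at least 10.5-fold lower in odor), Olfr957 (at least 2.95-fold in odor and 4.14-fold in vehicle) and Olfr857 (at least 2.84-fold and 2.8-fold) followed, each with non-overlapping groups. In vehicle 1 of 4 GFP+ arrays of Olfr829 was above the floor, and the floored fold was 7.82 lower.

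Olfr943 shows how far a dim probe set limits a fold. It measured 3.47, 4.25, 3.97 and 4.04 in odor GFP+ and 6.92, 7.30, 7.01 and 6.96 in odor GFP- arrays. Vehicle pools gave 4.43, 4.46, 3.75 and 3.19 in GFP+ and 7.12, 6.86, 6.75 and 7.32 in GFP- arrays. The log2 difference was -3.12 ± 0.26 in odor (adjusted p = 4.96e-08) and -3.06 ± 0.26 in vehicle (adjusted p = 6.62e-08). The GFP- arrays were only just over their floors, however, and the bound was at least 1.25-fold lower in odor and at least 1.47-fold lower in vehicle. With all dim values raised to the floor it was not called in either treatment (adjusted p = 0.577 and 0.0959).

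**Figure D2:**
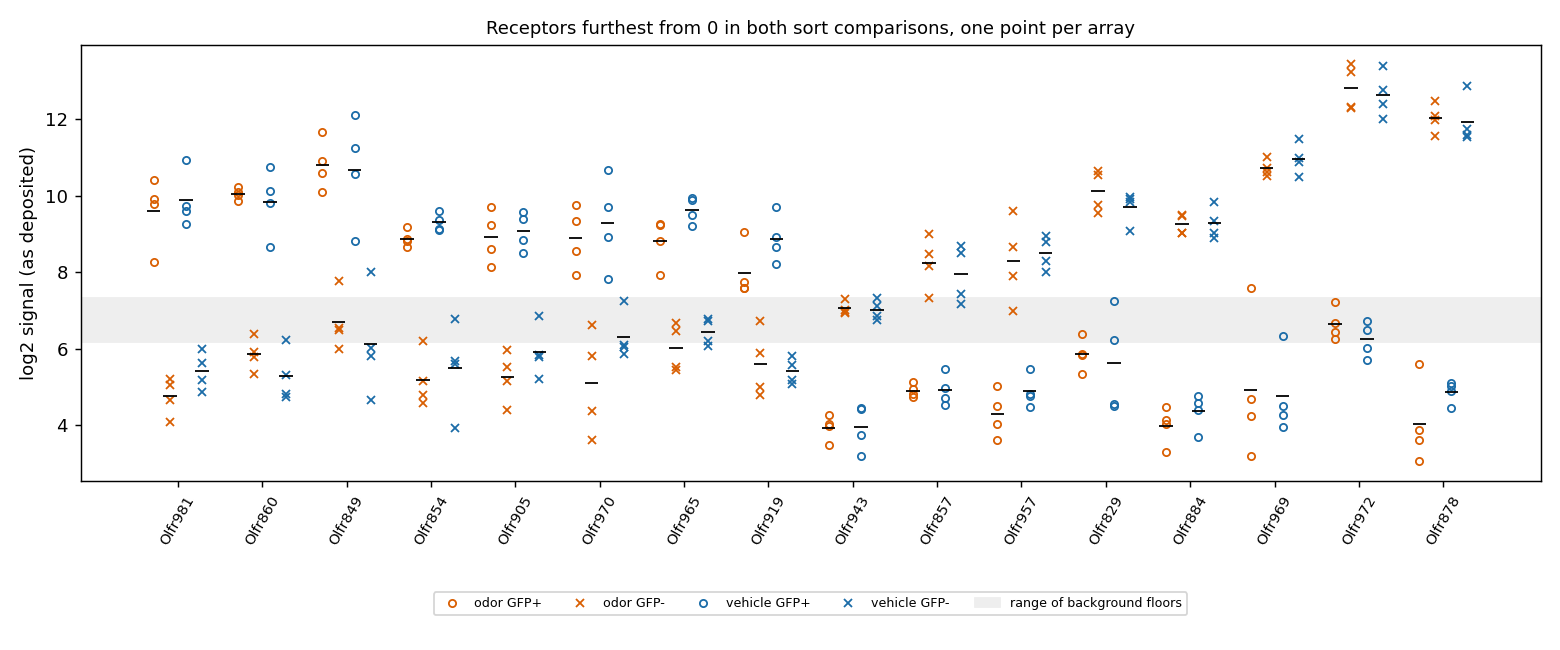
Log2 signal as deposited, on each of the 16 arrays, for the 8 receptors highest and the 8 lowest in GFP+ against GFP- cells among those called alike in both treatments. Circles are GFP+ and crosses GFP- arrays, orange is odor and blue vehicle, short bars are group means and the grey band is the range of background floors (6.16 to 7.33); for each receptor the circles and crosses of a treatment do not overlap.

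Neighbours on the chromosome were set against each other. In 53 pairs of members no annotated gene lay between them. Their mean sort differences, averaged over both treatments, had a median gap of 1.97 log2 units, 21 pairs (39.6%) had opposite signs and 7 (13.2%) were called in opposite directions in both treatments. Over all 4851 pairs of members the median gap was 1.94, 47.3% had opposite signs and 12.2% opposite calls. These are descriptions of pairs that share genes, and adjacent pairs had a median gap close to that of all pairs.

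On the deposited scale the widest gaps between adjacent genes lay in one run of MOR171 receptors, Olfr968 to Olfr972. Olfr968 and Olfr969 differed by 7.71, Olfr969 and Olfr970 by 9.37, and Olfr971 and Olfr972 by 8.11. Except for Olfr968, the dimmer arrays of each were in part or all under the floor, so these sizes include signal at background. Olfr968 measured 13.71, 12.84, 13.17 and 12.74 in odor GFP+ and 11.67, 10.87, 12.04 and 10.92 in odor GFP- arrays. In vehicle it measured 13.67, 13.05, 13.50 and 12.82 in GFP+ and 12.11, 11.18, 11.92 and 11.05 in GFP- arrays. It was bright in both fractions and 3.33-fold higher in GFP+ cells in odor (1.74 ± 0.31, adjusted p = 0.000526) and 3.24-fold in vehicle (1.69 ± 0.31, adjusted p = 0.000676), without overlap.

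Olfr970, next to Olfr969, measured 9.75, 8.56, 9.34 and 7.93 in odor GFP+ and 6.62, 4.37, 5.81 and 3.60 in odor GFP- arrays. In vehicle pools it gave 10.68, 9.69, 8.91 and 7.83 in GFP+ and 7.24, 6.04, 6.10 and 5.87 in GFP- arrays. It was higher in every GFP+ array, by 3.79 ± 0.62 in odor (adjusted p = 0.000199) and 2.97 ± 0.62 in vehicle (adjusted p = 0.00221), while Olfr969 was lower in every one. With 1 GFP- array above the floor in each treatment and the others raised to theirs, Olfr970 was 4.48-fold higher in odor and 6.005-fold in vehicle. Olfr971 averaged 7.57 ± 0.35 in odor GFP+ and 5.92 ± 0.31 in odor GFP- arrays (SD, n = 4 each), at least 1.81-fold higher (1.65 ± 0.26, adjusted p = 0.000124), and its neighbour Olfr972 was among the lowest. Olfr967, on the other side of Olfr968, was called higher in GFP+ cells in both treatments, but 1 of 4 GFP+ arrays in odor, 2 of 4 in vehicle and none of its GFP- arrays were above the floor, so no fold is given in odor and the vehicle bound was at least 1.47-fold. Near-identical receptors can share probe targets, and cross-hybridisation between them was not tested.

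**Figure D3:**
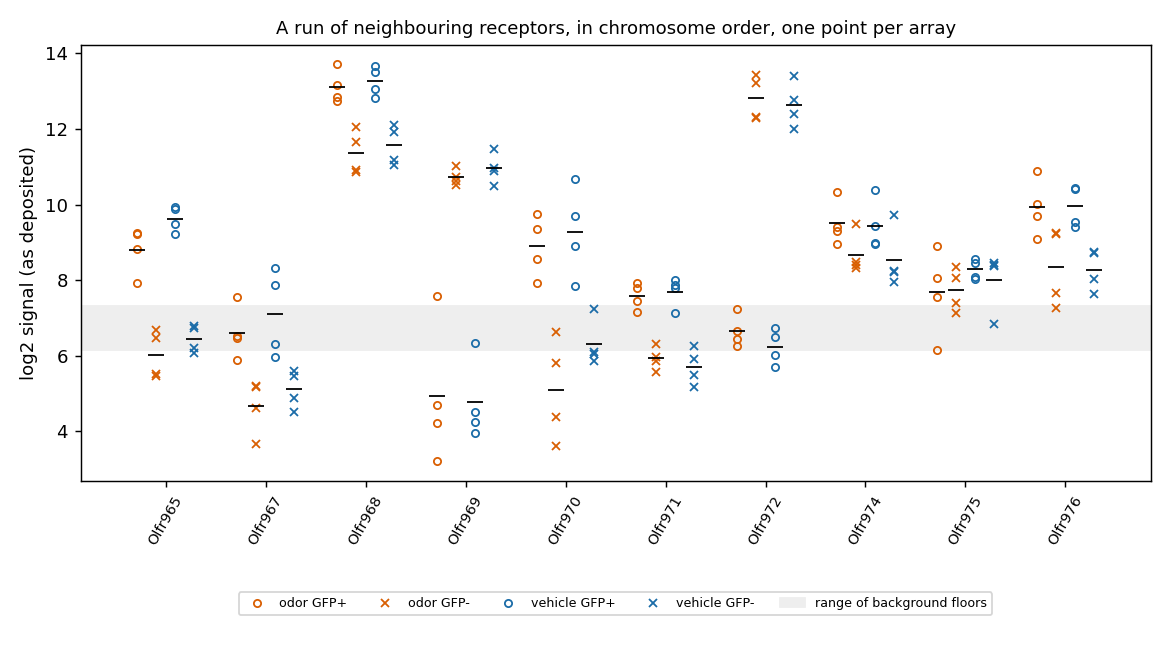
Log2 signal as deposited of 10 consecutive receptors in chromosome order, 1 point per array, with circles for GFP+ and crosses for GFP- arrays, orange for odor and blue for vehicle, bars at group means and the range of background floors in grey. Olfr969 and Olfr972 have crosses above circles, and Olfr967, Olfr968, Olfr970 and Olfr971 beside them have circles above crosses.

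The smallest gaps lay in the first block. Olfr868 and Olfr869 of family MOR145 had mean sort differences of -1.27 and -1.37. Those of Olfr836 and Olfr837 of family MOR152 were -0.46 and -0.37, and those of Olfr871 and Olfr872 were -0.75 and -0.85. Olfr871 was under the floor on every array. Olfr837 was above it on 2 arrays, Olfr836 on 9 and Olfr869 on 12. All of these gaps therefore include signal at background. Olfr872 measured 8.59, 8.35, 8.34 and 8.32 in odor GFP+ and 9.27, 9.02, 10.15 and 9.69 in odor GFP- arrays, a difference of -1.13 ± 0.25 without overlap (adjusted p = 0.00378). For vehicle it was at 8.09, 8.41, 8.98 and 7.76 in GFP+ and 8.82, 8.81, 8.76 and 9.10 in GFP- arrays, which overlapped (-0.56 ± 0.25, adjusted p = 0.159). Olfr869, whose start window resembles that of Olfr872, measured 7.01, 7.36, 6.37 and 5.30 in odor GFP+ and 8.44, 8.46, 7.96 and 8.19 in odor GFP- arrays (-1.75 ± 0.35, adjusted p = 0.00156). Vehicle pools gave 7.02, 7.07, 7.18 and 5.999 in GFP+ and 8.13, 7.59, 7.52 and 7.999 in GFP- arrays (-0.996 ± 0.35, adjusted p = 0.0668, and 0.0381 in a replicate block fit that takes the pool as random). Both genes were thus lower in all 4 GFP+ arrays of odor pools than in any GFP- array of those pools. In vehicle the groups of Olfr869 did not overlap either, while those of Olfr872 did. The test of a change of the sort difference with odor did not pass for either (-0.75 ± 0.50 for Olfr869 and -0.57 ± 0.36 for Olfr872, unadjusted p = 0.15 and 0.128).

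The 99 receptors fall into 25 MOR families, 8 of which have 4 or more members and hold 68 genes. All 5 members of MOR223 and 6 of 8 members of MOR224 were higher in GFP+ cells in both treatments, and none was lower. The 26 members of MOR171 had differences between -6.18 and 3.79 in odor and between -6.39 and 3.47 in vehicle, with 8 higher and 7 lower in odor and 9 higher and 8 lower in vehicle. MOR162 had 5 of 10 members higher and 1, Olfr884, lower in both treatments. Same-family pairs had a median gap of 2.00 in mean sort difference (462 pairs), different-family pairs of 1.94 (4389 pairs), and same-family pairs outside MOR171 of 1.49 (137 pairs).

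Within MOR223, Olfr981 stood first on the deposited scale, with its GFP- arrays under the floor, and Olfr982 last. Olfr982 measured 9.98, 11.29, 10.20 and 10.24 in odor GFP+ and 8.999, 8.87, 9.38 and 8.73 in odor GFP- arrays. In vehicle it measured 9.92, 11.54, 10.02 and 11.13 in GFP+ and 9.30, 9.03, 8.99 and 8.51 in GFP- arrays. It was above the floor on every array and did not overlap, with a 2.69-fold difference in odor (1.43 ± 0.34, adjusted p = 0.00667) and a 3.23-fold difference in vehicle (1.69 ± 0.34, adjusted p = 0.00157). Without odor pool 2 its odor difference was 1.10 (adjusted p = 0.0704). The other members, Olfr978, Olfr979 and Olfr980, had differences between 1.65 and 2.32 in odor and between 2.18 and 2.25 in vehicle.

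In MOR224, Olfr958, the receptor known for eugenol, measured 13.09, 13.22, 12.13 and 12.98 in odor GFP+ and 11.37, 10.84, 10.40 and 10.75 in odor GFP- arrays. In vehicle pools it gave 13.33, 13.01, 12.50 and 13.52 in GFP+ and 11.31, 11.45, 10.59 and 10.01 in GFP- arrays. Every array lay far above the floor and GFP+ cells were 4.04-fold higher in odor (2.01 ± 0.33, adjusted p = 0.00017) and 4.75-fold in vehicle (2.25 ± 0.33, adjusted p = 5.18e-05). Olfr960 stood first in that family on the deposited scale, but with all 8 GFP- arrays under the floor it was at least 2.18-fold higher in odor (1.89 ± 0.27, adjusted p = 3.61e-05) and at least 2.87-fold in vehicle (2.53 ± 0.27, adjusted p = 1.14e-06). Olfr975 had the smallest, -0.06 ± 0.47 in odor and 0.28 ± 0.47 in vehicle, and its groups overlapped in both. Olfr959 was the other member without a call (0.53 ± 0.42 and 0.45 ± 0.42).

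Families MOR145, MOR146, MOR147, MOR149, MOR161, MOR162, MOR170 and MOR171 held calls in both directions in vehicle. MOR143, MOR150, MOR151, MOR155, MOR167, MOR223 and MOR224 held higher calls and no lower ones there. In MOR146, Olfr860 was among the highest of all members, Olfr857 and Olfr859 were lower in GFP+ cells in both treatments, and Olfr862 was under the floor on every array. In MOR161, Olfr876 was 6.62-fold higher in odor (2.73 ± 0.45, adjusted p = 0.000221) and 8.07-fold in vehicle (3.01 ± 0.45, adjusted p = 7.67e-05), whereas its direct neighbour Olfr875 was at least 1.41-fold lower in odor (-2.17 ± 0.46, adjusted p = 0.00226) and at least 1.85-fold lower in vehicle (-2.60 ± 0.46, adjusted p = 0.000409). With low values raised to the floor the odor call of Olfr875 was lost (-0.50, adjusted p = 0.517). In MOR170, Olfr893 was higher in both treatments and Olfr894, next to it, had -1.20 ± 0.49 in odor (adjusted p = 0.12) and -2.09 ± 0.49 in vehicle (adjusted p = 0.00546, at least 1.82-fold lower). Without vehicle pool 2 the vehicle value of Olfr894 was -1.73 (adjusted p = 0.063), and without odor pool 4 its odor value was -1.86 (adjusted p = 0.0164). In MOR162, Olfr887 was the highest on the deposited scale, with 2.73 ± 0.60 in odor (adjusted p = 0.0031) and 2.97 ± 0.60 in vehicle (adjusted p = 0.00148). Only 2 of 4 GFP+ arrays of Olfr887 were above the floor in each treatment, and with low values raised to the floor neither difference passed (adjusted p = 0.961 and 0.0864).

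In MOR145, Olfr873 measured 10.87, 10.84, 11.80 and 10.95 in odor GFP+ and 10.14, 10.76, 10.74 and 9.57 in odor GFP- arrays. For vehicle it was at 11.06, 10.55, 11.51 and 10.56 in GFP+ and 10.19, 9.98, 9.86 and 9.66 in GFP- arrays. The fractions were close but did not overlap in either treatment. The difference was 0.81 ± 0.29 in odor (adjusted p = 0.0724, and 0.0376 in the fit that takes the pool as random) and 1.00 ± 0.29 in vehicle (adjusted p = 0.0235). The vehicle call was lost without vehicle pool 1, 3 or 4 (adjusted p between 0.0566 and 0.146). It had the highest mean sort difference of its family, and 3 of the other 4 members had negative differences in odor. Olfr868 was lower in vehicle (-1.65 ± 0.48, adjusted p = 0.0228), a call that was also lost without vehicle pool 1, 3 or 4 (adjusted p between 0.085 and 0.165).

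**Figure D4:**
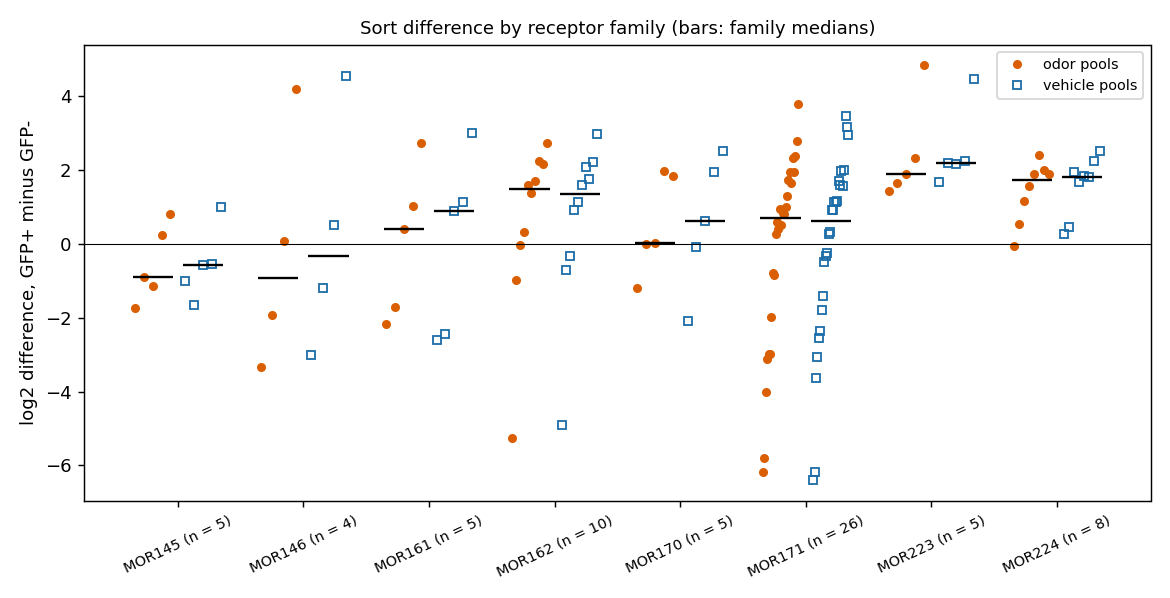
Log2 difference of GFP+ minus GFP- cells for each member of the 8 MOR families with 4 or more members, with filled circles for odor pools, open squares for vehicle pools and bars at family medians. All points of MOR223 lie above 0, and those of MOR171 run from -6.39 to 3.79.

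By position, the first block had 9 of 30 members higher and 8 lower in odor, and 11 higher and 6 lower in vehicle, with median differences of 0.16 and 0.31. The second block had 29 of 69 higher and 11 lower in odor, and 30 higher and 14 lower in vehicle, with medians of 0.96 and 0.92. The difference between the blocks was not tested, and both MOR223 and MOR224 lie in the second.

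Signals of different probe sets cannot be read against each other as transcript amounts, and the probe sets of highest signal are given as those furthest over the floor. Olfr893 averaged 12.49 over the 16 arrays, Olfr968 averaged 12.33 and Olfr958 averaged 11.91. Olfr893 measured 13.02, 13.51, 14.23 and 13.11 in odor GFP+ and 11.20, 11.40, 12.46 and 11.49 in odor GFP- arrays. Vehicle pools gave 13.08, 13.51, 14.14 and 14.06 in GFP+ and 11.95, 10.72, 11.11 and 10.90 in GFP- arrays. All 3 were higher in GFP+ cells, Olfr893 by 3.55-fold in odor (1.83 ± 0.34, adjusted p = 0.00071) and 5.77-fold in vehicle (2.53 ± 0.34, adjusted p = 2.22e-05). The probe sets of lowest signal were those of Olfr862, Olfr936 and Olfr917, with means of 3.05, 3.06 and 3.13, under the floor on every array. Their sort differences lay between 0.08 and 0.52 and none was called.

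Some members were called in a single treatment. Olfr904 was called higher and Olfr832, Olfr869 and Olfr872 lower in odor, and Olfr843, Olfr873, Olfr906 and Olfr933 higher and Olfr868, Olfr894, Olfr923 and Olfr938 lower in vehicle. None of these 12 was called in the test of the difference between the treatments. Of the 34 members called in neither, 17 were under the floor on all 16 arrays. A call below the floor was made for Olfr832, Olfr877, Olfr901 and Olfr955 in odor and for Olfr901 and Olfr955 in vehicle, where both fractions were under the floor, so no fold is given.

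The second question was which receptors differ between 2-hexanone and vehicle. None of the 99 receptors was called in GFP+ cells, in GFP- cells or for the odor-dependent change of the sort difference, at adjusted p below 0.05 by limma. Over all probe sets 0.00901% were called in GFP+ cells, 0% in GFP- cells and 0.00901% for the change of the difference. Of the other odorant receptors 0.102%, 0% and 0.204% were called. At an unadjusted p below 0.05 there were 5 members in GFP+ cells (5.05%, beside 3.91% of all probe sets), 6 in GFP- cells (6.06%, beside 2.46%) and 2 for the change (2.02%, beside 2.93%). Among other receptors these shares were 8.15%, 5.3% and 3.98%. The 95% confidence intervals of the members reached 0.42 to 1.38 log2 units to either side in each fraction (median 0.80) and 0.59 to 1.96 for the change (median 1.14). These are unadjusted intervals, and a difference past its own interval could still miss the adjusted threshold, as those of Olfr961 and Olfr855 did.

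In GFP+ cells the median difference of odor minus vehicle was -0.08 over the members, beside 0.01 over other receptors and 0.0032 over all probe sets, and 64 of 99 were below 0. Olfr961 had the lowest unadjusted p. It measured 11.23, 11.40, 10.92 and 10.01 in odor GFP+ and 11.85, 11.81, 11.40 and 11.73 in vehicle GFP+ arrays. The highest odor array was just under the lowest vehicle array, and Olfr961 was the one member whose groups were apart in GFP+ cells, where 1% of all probe sets lay apart in that direction and 1.01% in the other (1.02% and 2.45% of other receptors). The difference was -0.81 (95% interval -1.36 to -0.25, unadjusted p = 0.00678) and did not pass after adjustment (adjusted p = 1).

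In GFP- cells Olfr961 measured 9.68, 10.12, 9.82 and 9.33 after odor and 9.82, 9.44, 10.07 and 9.60 after vehicle, which overlapped, and the change of its sort difference was -0.81 (interval -1.59 to -0.03, unadjusted p = 0.0429). Its GFP+ to GFP- difference was 1.15 ± 0.26 in odor (adjusted p = 0.0044) and 1.96 ± 0.26 in vehicle (adjusted p = 2.02e-05). All 5 members of MOR223 and all 8 members of MOR224 had a negative difference of odor minus vehicle in GFP+ cells, from -0.81 to -0.02, and none was called. The comparisons share arrays, so these values are a description.

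Olfr923 was the member with the largest positive difference in GFP+ cells. It measured 7.99, 7.43, 6.27 and 6.27 in odor GFP+ and 6.87, 6.29, 4.79 and 5.60 in vehicle GFP+ arrays. The groups overlapped, and only 2 of 4 odor arrays and 1 of 4 vehicle arrays were above the floor. The difference was 1.10 (interval 0.18 to 2.03, unadjusted p = 0.0224, adjusted p = 1). In GFP- cells it measured 8.30, 8.45, 8.03 and 8.18 after odor and 9.48, 7.79, 8.40 and 8.65 after vehicle, and the change of the sort difference was 1.44 (interval 0.13 to 2.75, unadjusted p = 0.0329). Olfr965 (-0.82 ± 0.32), Olfr919 (-0.88 ± 0.41) and Olfr938 (0.59 ± 0.27) were the other members of lowest p in GFP+ cells, with unadjusted p of 0.0213, 0.0468 and 0.0429.

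In GFP- cells Olfr855, the single member of family MOR148, had the lowest unadjusted p. It measured 8.97, 8.94, 9.43 and 8.70 in odor GFP- and 8.15, 7.65, 7.42 and 8.14 in vehicle GFP- arrays. All 4 odor arrays were above all 4 vehicle arrays, with a difference of 1.17 (interval 0.36 to 1.97, unadjusted p = 0.00688, adjusted p = 1). Olfr904 measured 6.87, 6.74, 7.14 and 6.80 in odor GFP- and 8.15, 7.14, 8.06 and 7.50 in vehicle GFP- arrays, a difference of -0.82 ± 0.30 (unadjusted p = 0.0127). Olfr944 was under the floor on every array (-0.64 ± 0.22). These 3 were the members whose groups did not overlap in GFP- cells, 1 above and 2 below, where 0.941% and 0.833% of all probe sets, and 0.612% and 0.714% of other receptors, were apart. Olfr872 (0.66 ± 0.25, unadjusted p = 0.0181) and Olfr924 (-1.18 ± 0.49, unadjusted p = 0.0277) completed the 5 of lowest p.

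**Figure D5:**
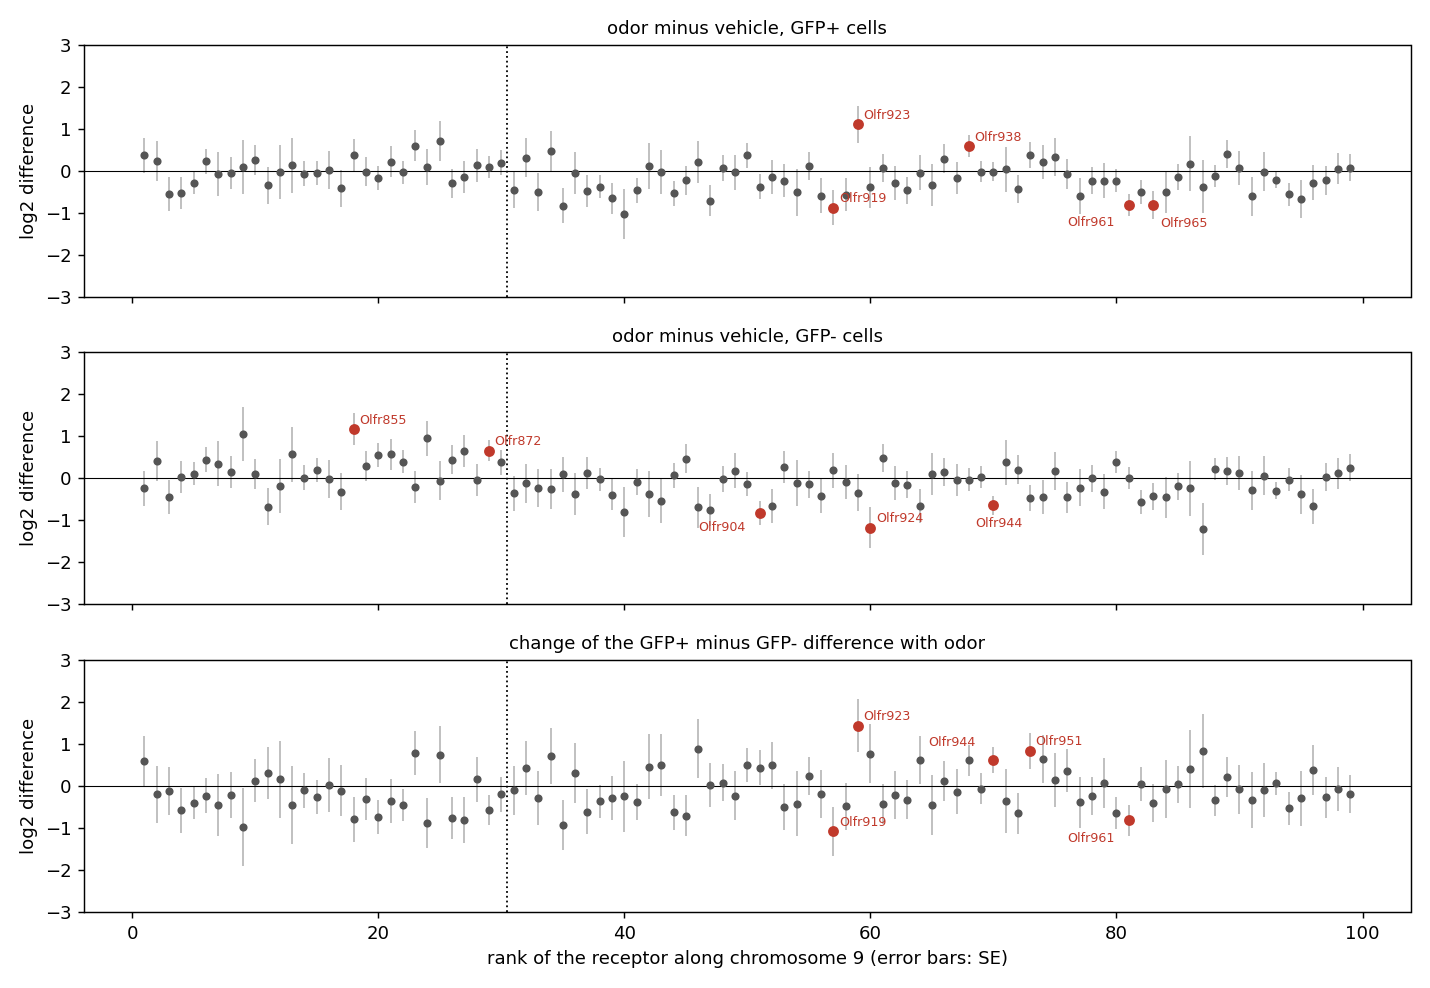
Log2 difference of odor minus vehicle in GFP+ cells (top) and in GFP- cells (middle), and how the GFP+ minus GFP- difference changed with odor (bottom), for each receptor in chromosome order with its SE. No receptor was called in any panel, and the named receptors, in red, are the 5 of lowest unadjusted p in each.

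Genes that act with the receptors were set beside them. Of 15 listed genes of olfactory transduction, 4 were higher in odor and 5 in vehicle, with none lower. Pde1c, a phosphodiesterase of the cilia, averaged 15.90 ± 0.18 in odor GFP+ and 14.80 ± 0.25 in odor GFP- arrays (SD, n = 4 each), a log2 difference of 1.10 ± 0.18 (SE, adjusted p = 0.0002). Pde4a (0.82 ± 0.18), the calcium-activated chloride channel gene Ano2 (0.68 ± 0.18) and the calcium exchanger gene Slc24a4 (0.64 ± 0.18) were also higher in odor, and all 4 were higher in vehicle. Ric8b and Gng13 were not called in either treatment (0.40 ± 0.15 and 0.28 ± 0.20 in odor). Of 5 receptor chaperones the heat-shock gene Hspa1a was called, lower in both treatments (-1.78 ± 0.56 and -2.30 ± 0.56). Its GFP+ means of 6.80 in odor and 6.37 in vehicle lay within the range of floors (6.16 to 7.33), so these sizes include signal at background. Reep1 and Rtp2, which help carry receptors to the cell surface, were not called (0.36 ± 0.19 and 0.49 ± 0.25 in odor). Of 16 genes of receptor choice, 3 were lower in odor and 2 in vehicle. Lbr, the lamin B receptor that is lost from the nuclear envelope as these neurons mature, averaged 9.98 ± 0.30 in odor GFP+ and 12.16 ± 0.12 in odor GFP- arrays (-2.18 ± 0.30, adjusted p = 2.41e-05), and it is also expressed by immune cells. Smchd1, a chromatin protein, was also lower in both (-0.94 ± 0.24 and -1.50 ± 0.24), and Cbx5, a heterochromatin protein, in odor (-0.94 ± 0.24). Rcor1 (-0.46 ± 0.21) and Ebf1 (0.28 ± 0.15) were not called in odor or vehicle. Lhx2, the homeodomain protein named with the promoters, had differences of -0.01 ± 0.15 in odor and -0.04 ± 0.15 in vehicle. No gene of these lists was called between odor and vehicle.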

How the data were processed

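Olfactory mucosa RNA of 8 pools of 3 mice, each sorted into GFP+ and GFP- cells, was measured on 16 Clariom S arrays. The authors deposited log2 signals per probe set. The submitters' processing notes name Affymetrix Expression Console, and no source used here gives its version, the summary method or the transformation behind the scale. Probe sets were named from GEO's platform annotation, and gene order, MOR families and start windows came from RefSeq tables (GRCm38.p6). Of 28846 table entries, 6640 were controls and 22206 were tested. Deposited values were fitted as 4 group means with limma 3.58.1 (R 4.3.3, lmFit and eBayes, 12 residual degrees of freedom), with Benjamini-Hochberg adjustment over all 22206 and calls below 0.05. The procedure was also run on simulated data with independent noise for each array, which held no pool effect and no background floor. Figures were drawn with matplotlib 3.10.9 from tables made in Python 3.11.15 with pandas 2.3.3.

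A fold is a lower bound ("at least") where every dim array was under its floor, and is otherwise computed with dim values raised to the floor. Named members were those with the 8 highest and 8 lowest mean sort differences among calls shared by both treatments, the 5 of lowest p in each odor comparison, the 3 highest and 3 lowest signals, the extremes of each family with 4 or more members, and the adjacent pairs with the 3 largest and 3 smallest gaps. Other members were named after their values were seen. The members and lists were chosen with earlier results of these data known. A choice by protein identity could not be made here. GFP+ and GFP- arrays of a number come from the same pool per the labels, so the pool pairs them. Their deviations from group means correlated at 0.0136 to 0.425. The first pools of odor and vehicle, 2 separate pools, also deviated together (0.419 in GFP+ and 0.354 in GFP- arrays), and the labels name no shared day or batch. No pair of arrays was a duplicate, with a highest correlation of 0.986. Nothing in the labels says more on how pools were assigned, so p-values measure the spread between these pools.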

Additional observations from a re-analysis of the deposited data

Results flagged for a closer look

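Each of 45 named members was examined in its 4 groups of 4 arrays, 180 groups in all, for a single array lying far from the other 3, measured as its gap to the nearest array over the group's range (Dixon's criterion). Chance marks about 1 group in 20, and 11 were marked, 5 of them by an array of the first pool.

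Arrays of the first pools stood high. In odor GFP+ cells the first pool was highest for Olfr919 at 9.04 (others 7.58 to 7.74), for Olfr872 at 8.59 (others 8.32 to 8.35) and for Olfr938 at 5.63 (others 5.20 to 5.25). In vehicle GFP- cells it was highest for Olfr878 at 12.88 (others 11.53 to 11.73) and for Olfr970 at 7.24 (others 5.87 to 6.10).

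Arrays of the fourth vehicle pool were lowest in GFP- cells for Olfr829 at 9.09 (others 9.84 to 9.95) and for Olfr975 at 6.84 (others 8.36 to 8.44). The same pool's GFP+ array was lowest for Olfr869 at 5.999 (others 7.02 to 7.18) and highest for Olfr960 at 8.62 (others 7.86 to 7.95). The third odor pool was highest in GFP+ cells for Olfr873 at 11.80 (others 10.84 to 10.95), and the second vehicle pool was highest in GFP- cells for Olfr951 at 5.09 (others 3.98 to 4.07).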

How the results depend on the processing

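All counts of called members stayed within 1.5 times under the alternatives run, and no member was called between odor and vehicle under any of them. The median sort difference moved in odor to 0.94 with arrays centred on their medians, 0.82 with the dimmest 20% of probe sets left out, 0.036 with values raised to the floor and 0.75 without odor pool 3, and in vehicle to 1.26 with centring and 0.28 with the floor. Leaving out 1 pool at a time gave 34 to 40 higher and 16 to 21 lower in odor, 34 to 45 higher and 17 to 21 lower in vehicle, and medians of 0.52 to 0.75 and 0.71 to 0.90. For odor minus vehicle the medians were -0.25 to -0.02 in GFP+ cells, -0.14 to 0.06 in GFP- cells and -0.24 to 0.04 for the shift of the sort difference. Over all probe sets, calls of higher signal numbered 1175 in odor and 1295 in vehicle, against 8534 and 8986 with centring and 1855 and 1972 with quantile normalization (48% and 49% of calls higher). Raising values to the floor moved the median of all probe sets to 0.27 for odor minus vehicle in GFP+ cells. This is the difference between the mean floors of these 2 groups, which any probe set under the floor on all their arrays takes.

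With the pool as a replicate block, 40 receptors were higher and 19 lower in both treatments (random effect) or 40 and 18 (fixed effect). These included all 37 and 16 of the unblocked fit. By treatment, the random-effect fit called 43 higher and 21 lower in odor, and 45 and 21 in vehicle. Among the calls gained were that of Olfr873 in odor (both fits) and that of Olfr869 in vehicle (random effect). Raised to the floor, 31 and 11 of the 37 and 16 were kept.

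Directions turned for uncalled receptors near 0 or under the floor. In vehicle, Olfr836 was 0.12 with centring, 0.055 with quantile normalization, 0.13 with the floor, and 0.035 and 0.085 without vehicle pool 2 and 3 (range over left-out pools -0.76 to 0.085). Olfr837 in vehicle was 0.10 with centring, 0.080 with quantile normalization and 0.23 without vehicle pool 1 or without pool 1 of both treatments, an alternative chosen after seeing the data (range -0.68 to 0.23). With the floor, Olfr836 was 0.15 and Olfr871 0.015 in odor, Olfr862, Olfr917 and Olfr936 were each -0.098 in vehicle, and Olfr944 was 0.16 for odor minus vehicle in GFP- cells. Apart from Olfr836, these were under the floor on every array, so their values are differences between the mean floors of the groups. Olfr862 in odor was -0.023 with quantile normalization and -0.14 without odor pool 3 (range -0.14 to 0.25), and Olfr917 in vehicle was -0.19 without vehicle pool 2 (range -0.19 to 0.53). Olfr975 in odor was 0.29 with centring, 0.11 with quantile normalization, 0.0078 with the floor, and 0.18 and 0.34 without odor pool 3 and 4 (range -0.39 to 0.34), and in vehicle it was -0.030 without vehicle pool 4 (range -0.030 to 0.49). The cause of the other changes was not tested.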

Other observations

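The blocks of the cluster differed in how their mean signals stood to each other. In GFP- cells the mean of the first block minus that of the second was 0.49, 0.45, 0.58 and 0.61 in odor arrays and 0.09, 0.26, 0.18 and -0.13 in vehicle arrays, which did not overlap. In GFP+ cells it was -0.03, 0.60, 0.40 and 0.61 in odor arrays and 0.02, 0.18, 0.26 and 0.24 in vehicle arrays, which overlapped. For odor minus vehicle in GFP- cells, 9 of 30 first-block receptors and 46 of 69 second-block receptors were below 0. Over all probe sets 11089 of 22206 were below 0, and so were 524 of 981 other receptors. No member was called in that comparison, and the block means include members under the floor on every array. These values were chosen after they were seen and carry no test.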
